A study of Homo sapiens with 11 samples.

Results

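The HIST1 cluster on the short arm of human chromosome 6 holds most of the replication-dependent histone genes. Its members were taken by position: every interval of enriched chromatin on hg19 chromosome 6 that overlapped a first span from 26000001 to 26300000 (300 kb) or a second span from 27050001 to 27900000 (850 kb). This gave 245 of the 229591 intervals in the 10 lists of the series. The intervals came from ChIP-seq of the human triple-negative breast cancer line MDA-MB-231 for the histone marks H3K4me3, H3K9me3, H3K36me3 and H4K20me3 and for mdig itself (antibody MINA). Both cell groups came out of CRISPR-Cas9 work, were grown in medium with blasticidin and were otherwise untreated per the labels: WT cells with normal mdig protein, and KO cells that make none. Each antibody had 1 WT and 1 KO library, so every value describes those libraries and no difference could be tested. Whether the KO cells are 1 clone is not given in the sources used here, and the sequencing depth is unknown because the lists hold positions only.

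Replication-dependent histone genes are switched on together in S phase, when new DNA has to be packed. They have no introns, and their messages end in a conserved stem-loop in place of a poly(A) tail. The coactivator NPAT, a target of cyclin E and CDK2, gathers at the cluster and drives them with factors such as OCT1, which binds an octamer in H2B promoters. H3K4me3 marks active promoters, H3K36me3 follows transcription through gene bodies, and H3K9me3 and H4K20me3 mark silent heterochromatin. Mdig (also MINA or RIOX2) is an oxygenase with a JmjC domain that hydroxylates a ribosomal protein and has been linked to loss of H3K9me3.

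In RefSeq (GRCh38.p14) the cluster falls into a pair of blocks with 53 histone genes. The first, after TRIM38 and before BTN3A2, has 32 of them: 5 H1, 4 H2A, 8 H2B, 7 H3 and 8 H4 genes, with 1 other protein-coding gene, the iron regulator HFE, and 13 tRNA genes. The second, after ZNF322 and before OR2B2, has 21: 1 H1, 7 H2A, 6 H2B, 3 H3 and 4 H4 genes. Those 21 form a short run of 5 genes ending at H2AC12 and a longer run of 16 starting at H2BC13. Between the runs lie no histone gene but 51 tRNA genes and 5 other protein-coding genes, among them PRSS16, a thymic protease, and the zinc finger genes ZNF391 and ZNF184. The gap between the blocks, from BTN3A2 to ZNF322, has 9 protein-coding genes and no histone gene. The intervals are on hg19 and the gene table is not, so no interval was given to a gene, and genes are named by family and order only.

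The promoters of 1 gene per family are shown, the first in gene order whose promoter was at hand. Marked are sequence features that recur among the histone promoters without being in all of them. Each line holds the 250 bases before the RefSeq start site, 5′ to 3′ on the gene's strand, with GRCh38.p14 positions that are not comparable with the hg19 intervals. Capitals mark a CCAAT box, a TATA box with the letters TATAAA, or the octamer ATTTGCAT, on either strand.
H2AC4, chr6:26033619-26033868, minus strand: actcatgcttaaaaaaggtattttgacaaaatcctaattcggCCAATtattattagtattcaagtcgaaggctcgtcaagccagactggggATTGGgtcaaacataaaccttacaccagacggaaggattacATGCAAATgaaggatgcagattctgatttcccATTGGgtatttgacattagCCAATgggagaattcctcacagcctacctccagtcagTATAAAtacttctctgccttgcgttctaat
H2BC3, chr6:26043714-26043963, minus strand: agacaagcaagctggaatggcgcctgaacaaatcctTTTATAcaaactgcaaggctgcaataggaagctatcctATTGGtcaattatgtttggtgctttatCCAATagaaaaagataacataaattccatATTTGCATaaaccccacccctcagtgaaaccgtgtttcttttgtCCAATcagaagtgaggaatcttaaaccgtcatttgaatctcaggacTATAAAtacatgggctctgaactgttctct
H3C1, chr6:26020201-26020450, plus strand: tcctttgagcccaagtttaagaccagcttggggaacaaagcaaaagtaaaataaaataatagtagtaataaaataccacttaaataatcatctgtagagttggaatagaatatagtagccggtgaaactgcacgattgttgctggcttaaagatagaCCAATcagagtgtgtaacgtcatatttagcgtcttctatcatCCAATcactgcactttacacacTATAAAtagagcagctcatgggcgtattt
H4C2, chr6:26027284-26027533, minus strand: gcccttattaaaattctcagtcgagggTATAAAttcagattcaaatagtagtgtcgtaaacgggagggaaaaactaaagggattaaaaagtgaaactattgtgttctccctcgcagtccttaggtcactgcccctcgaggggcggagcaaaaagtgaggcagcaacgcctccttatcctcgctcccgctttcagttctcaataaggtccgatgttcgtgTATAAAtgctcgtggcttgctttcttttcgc
H1-1, chr6:26017788-26018037, minus strand: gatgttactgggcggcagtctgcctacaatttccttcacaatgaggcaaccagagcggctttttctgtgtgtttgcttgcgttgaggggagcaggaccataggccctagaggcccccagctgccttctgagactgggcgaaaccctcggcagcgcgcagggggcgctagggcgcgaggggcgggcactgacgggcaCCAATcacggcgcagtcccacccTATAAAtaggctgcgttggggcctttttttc

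All 5 sequences have TATAAA with its first base 29 to 31 bases before the start. H2AC4 and H2BC3 also hold the octamer, 118 and 120 bases before the start, in opposite orientations, and H4C2 is the only one with no CCAAT. Promoters from 250 bases before to 50 after the start were at hand for 48 of the 53 genes. CCAAT was in 41 of the 48 (85.4%), against 34.6% of all 35116 RefSeq promoters, and TATAAA in 31 (64.6%), against 11.5%. CCAAT was in every H1, H2A, H2B and H3 promoter but in only 3 of 10 H4 promoters. The octamer was in 8 of 10 H2A and 11 of 14 H2B promoters, in none of the H1, H3 and H4 promoters, and in 1.77% of all promoters. Among neighbouring genes, 8 pairs start back to back within overlapping windows, such as H2BC4 with H2AC6, and all 8 join an H2A with an H2B gene. A motif in the shared part of such windows was counted for both genes, so the H2A and H2B counts are not independent. The histone promoters were also less rich in G and C, with a median of 42.3% against 58.7%. These matches describe letters in the windows and say nothing of binding.

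In WT cells the cluster was dense in H3K4me3 and H3K9me3 but sparse in H3K36me3 (3.23% of the spans against 10.8% genome-wide). H3K4me3 intervals covered 19.8% of the spans and H3K9me3 intervals 39.3%, against 3.98% and 8.40% of chromosomes 1 to 22 and X. In KO cells H3K9me3 covered 129.8 kb of the spans where WT had 451.6 kb, a ratio of 0.287, while genome-wide it covered 1.20 times the WT length. H3K4me3 covered 214.8 kb in KO against 228.0 kb. Its paired intervals were narrower in KO throughout the first span and mostly wider over the middle of the second. Most of the H3K9me3 length in this middle stretch, whose edges were set after the values had been seen, was in WT only. MINA, which in WT lay mainly in the first span, covered 57.4 kb in WT and 17.6 kb in KO.

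**Figure D1:**
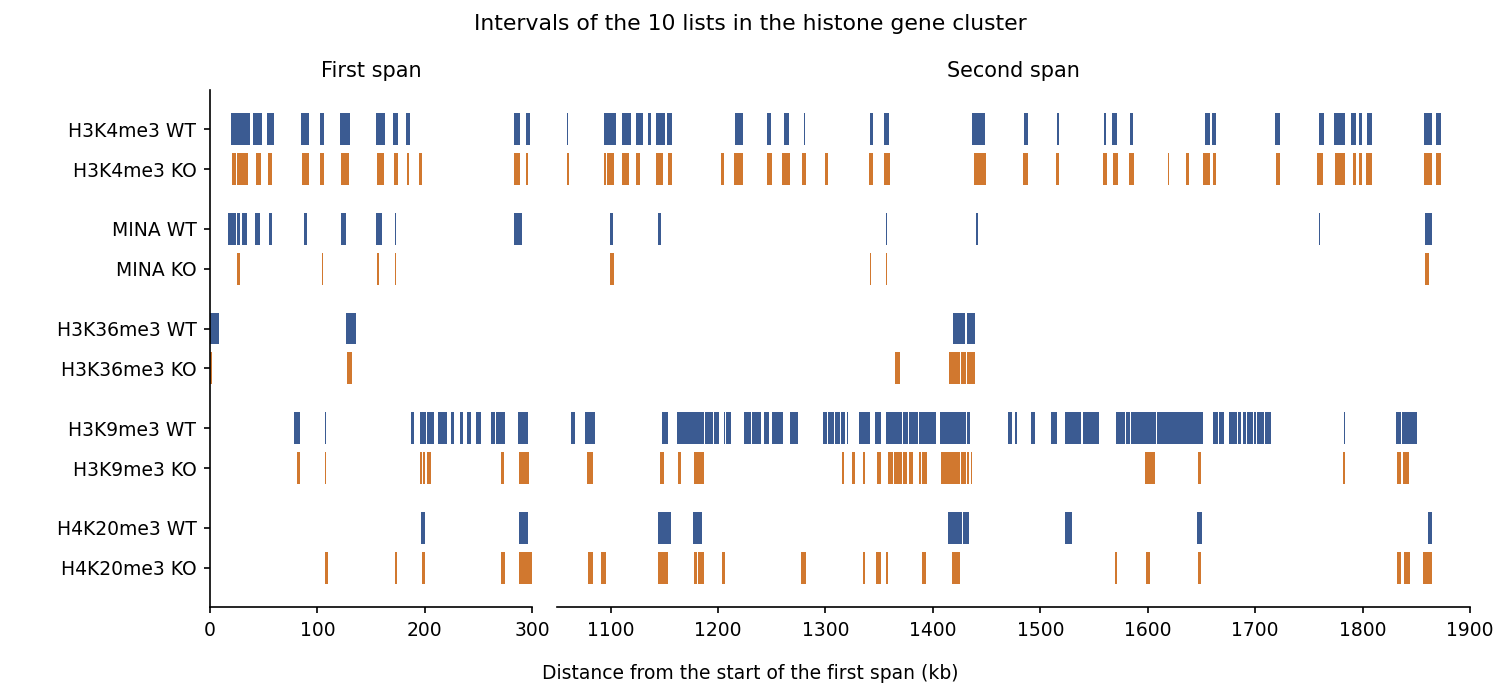
Intervals of the 10 lists (rows; WT blue, KO orange) in the first and second span, by distance in kb from the start of the first span; the gap from 300 to 1050 kb is not drawn. The H3K9me3 row of WT is filled over much of the second span, where the KO row has 23 intervals against 48.

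In WT the spans differed from the gap of 750 kb between them most in H3K9me3, and in KO most in H3K36me3 and H4K20me3. H3K9me3 covered 39.3% of the spans and 6.45% of the gap in WT, 6.09 times the share, and 11.3% and 4.99% in KO, 2.26 times. Most of the WT excess lay in the middle of the second span, from 27200001 to 27700000: without it the spans had 3.65 times the share of the gap in WT and 1.72 times in KO. H4K20me3 went the other way, from 1.29 times in WT to 3.22 times in KO. It covered 5.83% of the spans in WT and 9.11% in KO, while its share of the gap was lower in KO (4.51% and 2.83%). H3K4me3 was only slightly denser in the spans than in the gap, 1.26 times in WT and 1.35 times in KO. MINA was 2.23 times denser in WT and 1.40 times in KO. In WT the second span alone had a smaller share than the gap (1.86% against 2.24%), and in KO a slightly larger one (1.22% against 1.09%). H3K36me3 was the one antibody of the 5 with a smaller share in the spans, 0.342 of that in the gap in WT and 0.307 in KO.

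H3K4me3 was listed in 40 WT and 46 KO intervals. A counterpart in KO, meaning at least 1 bp of overlap with a KO interval, was present for 39 of those in WT (97.5%, 95% Wilson interval 87.1% to 99.6%, counting error only; 85.1% genome-wide). Conversely, 41 of the 46 KO intervals had a counterpart in WT (89.1%, Wilson interval 77.0% to 95.3%, against 94.1% genome-wide). Promoter mark was thus present at most of the same sites. The genotypes differed in interval width and in 1 WT and 5 KO intervals without a counterpart. In the first span H3K4me3 covered 79.6 kb in WT and 61.6 kb in KO (ratio 0.774), and in the second 148.4 kb and 153.2 kb (1.03). The gap had a ratio of 0.879 and the genome 0.844.

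All 10 intervals of the first span that paired one to one between the genotypes were narrower in KO, with a median width of 6.4 kb in WT and 4.2 kb in KO and ratios from 0.515 to 0.935. In the second span 13 of 27 pairs were narrower, and in both spans together 23 of 37, against 65.6% of pairs genome-wide. The narrowest ratio of the first span, 0.515, belonged to the interval from 26052801 to 26059400, which was 6.6 kb in WT and 3.4 kb in KO. Its neighbour from 26039601 to 26048400 went from 8.8 kb to 4.8 kb. At the far end of the span the interval from 26282601 to 26288800 kept nearly its width, 6.2 kb against 5.8 kb. The widest H3K4me3 interval of the cluster, 17.0 kb in WT from 26020001 to 26037000, was listed in KO as 2 pieces of 3.8 kb and 10.0 kb. Of the pairs that carried WT MINA 10 of 12 were narrower, and of those without it 13 of 25. Genome-wide these shares were 69.9% and 58.5%. Pairs with WT MINA lay mostly in the first span, where all 10 pairs were narrower with or without it. Span and MINA therefore cannot be told apart here.

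Along the second span the direction depended on place. Seen in bins of 50 kb, a middle stretch from 27200001 to 27700000 behaved unlike its flanks; its edges were set after the values had been seen. There H3K4me3 covered 59.6 kb in WT and 83.4 kb in KO (1.40), and 11 of 14 pairs were wider in KO, against 27.4% of pairs genome-wide. On the left flank it covered 43.6 kb and 29.8 kb (0.683), with 4 of 5 pairs narrower, and on the right flank 45.2 kb and 40.0 kb (0.885), with 6 of 8 narrower. With so few pairs neither count on the flanks stands clear of the 65.6% narrower in the genome. The count of the middle stretch cannot be judged against the genome share either, because its edges were set from these values. The strongest widening was from 0.8 kb to 3.4 kb at 27280001 to 27280800, followed by 2.0 kb to 4.0 kb at 27559401 to 27561400 and 2.8 kb to 5.4 kb at 27583801 to 27586600. The widest interval of the second span lay in the same stretch and changed little, 11.8 kb in WT from 27436401 to 27448200 and 10.8 kb in KO. After the 10.0-kb piece of the first span, the next widest in KO lay on the right flank at 27774401 to 27783200, 8.8 kb against 10.2 kb in WT. On the left flank the 11.0-kb WT interval from 27094001 to 27105000 was listed in KO as 2 pieces of 1.2 kb and 5.8 kb.

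**Figure D2:**
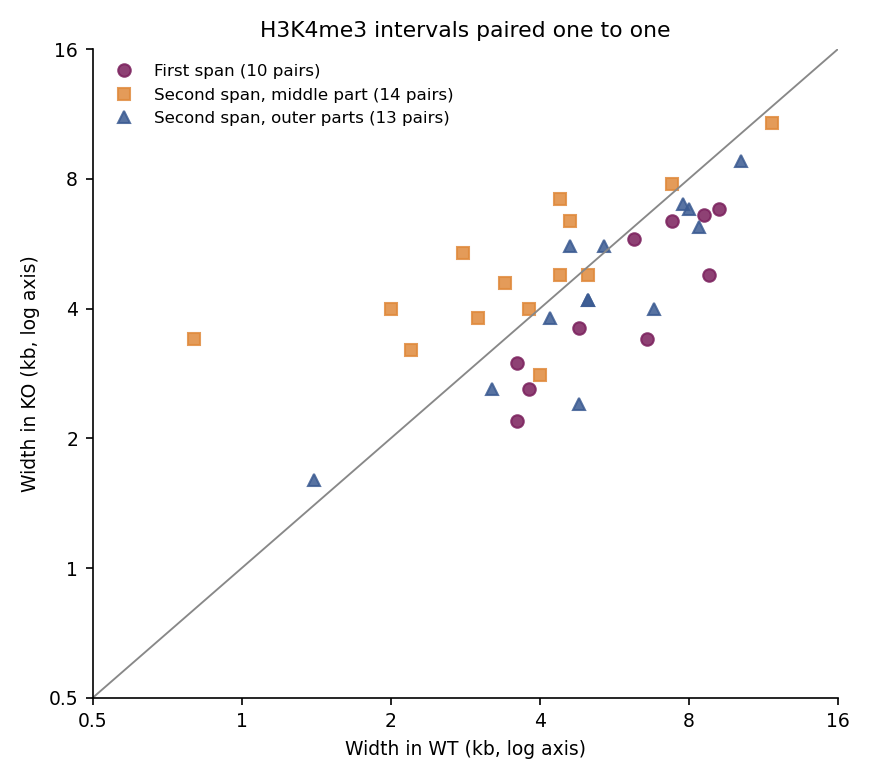
Width in KO (y, kb, log axis) against width in WT (x, kb, log axis) of the H3K4me3 intervals that pair one to one in the cluster; the line marks equal width. All 10 pairs of the first span (circles) lie under the line and 11 of 14 pairs of the middle stretch (squares) above it. The edges of the middle stretch were set after these values had been seen.

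H3K4me3 intervals found in 1 genotype only numbered 1 of 40 in WT and 5 of 46 in KO. The only one of WT was 3.0 kb wide, from 27134801 to 27137800 on the left flank. KO had 5, from 26195001 to 26197600 in the first span and, in the middle stretch, from 27202801 to 27205800, from 27299401 to 27302600, from 27618401 to 27619600 and from 27635601 to 27638600, between 1.2 kb and 3.2 kb wide. Of these 5, 4 overlapped H3K9me3 intervals of WT cells, against 7.86% of KO-only H3K4me3 intervals genome-wide. By length, 33.8 kb of the spans carried H3K4me3 in KO only, and 14.0 kb of it (41.4%) had been under WT H3K9me3, against 3.73% genome-wide. This is close to the 39.3% of the spans that WT H3K9me3 covered, and in the second span the share was 38.5%, below the 45.5% covered there. In the surrounding stretch of chromosome 6 from 24 to 66 Mb, without spans and gap, that share was 0.859%. In 22 bins WT and KO intervals together covered at least 2 kb, overlaps counted once. Of these, 1 was at least 1.5 times lower in KO (21.0% genome-wide) and 3 at least 1.5 times higher (5.60% genome-wide). The lower one started at 27100001 on the left flank, and the 3 higher ones at 27250001, 27300001 and 27600001 in the middle stretch.

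H3K36me3 was sparse where the histone genes are dense. Both spans together had 3.23% covered in WT and 2.90% in KO, against 9.47% of the gap in both genotypes and 10.8% of the genome. WT had 4 intervals, all with a counterpart in KO (85.5% genome-wide), and KO had 6, of which 5 had one in WT (85.5% genome-wide). The interval from 25997001 to 26008800, which reaches into the first span from its left, went from 11.8 kb to 4.0 kb and that from 26126801 to 26135800 from 9.0 kb to 4.6 kb. In the second span all H3K36me3 lay in the middle stretch: WT intervals of 11.6 kb and 7.8 kb from 27418601 to 27439400, and KO intervals of 10.2 kb, 4.4 kb and 7.6 kb over the same place. The 4.6-kb interval from 27364801 to 27369400 was listed in KO only. Covered length was therefore 0.371 of WT in the first span and 1.38 in the second, opposite directions that rest on 2 WT intervals each. Of 4 bins with at least 2 kb, 2 were lower in KO (15.0% genome-wide) and 1 was higher (15.4% genome-wide). Only 2 of 40 WT and 2 of 46 KO H3K4me3 intervals touched H3K36me3, against 39.3% and 44.6% genome-wide.

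MINA gave signal mainly in the first span in WT cells. It covered 41.6 kb there (13.9%), 15.8 kb of the second span (1.86%) and 3.94% of the genome. All 16 WT intervals lay on H3K4me3 (71.7% genome-wide), as did all 9 KO intervals (82.8% genome-wide). From the other side, 14 of 40 WT H3K4me3 intervals carried MINA (56.8% genome-wide), 8 of 11 in the first span and 6 of 29 in the second. In KO it was 9 of 46 (34.7% genome-wide). Promoter mark without MINA was thus the common case in the second span.

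The KO library shows what the antibody returned in cells without mdig protein. A KO counterpart was present for 6 of the 16 WT intervals (37.5%, Wilson interval 18.5% to 61.4%, against 38.8% genome-wide). A WT counterpart was present for 6 of the 9 KO intervals (66.7%, Wilson interval 35.4% to 87.9%, against 83.1% genome-wide). Covered length was 7.2 kb in KO in the first span, 0.173 of WT, and 10.4 kb in the second, 0.658 of WT. For both spans the ratio of 0.307 was close to the 0.298 of the genome, and the surrounding stretch of chromosome 6 stood at 0.865. Each of the 9 bins with at least 2 kb of MINA, overlaps counted once, was at least 1.5 times lower in KO (72.5% genome-wide). None was higher (10.2% genome-wide). The bin from 27350001, with 1.0 kb in WT and 1.2 kb in KO, fell short of that minimum, and with bins of 25 kb 9.09% were higher in KO.

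The 2 widest MINA intervals of WT were in WT only. The first, of 7.2 kb, lay at 26016601 to 26023800 and the next, of 7.0 kb, at 26283001 to 26290000. Further WT-only intervals at 26041801 to 26046800, at 26030201 to 26034600 and at 26122201 to 26126400 measured 5.0, 4.4 and 4.2 kb. These 5 lie in the first span, and the H3K4me3 intervals under them were present in KO. Among WT intervals with a KO counterpart, the widest, from 27858401 to 27864400, went from 6.0 kb to 3.6 kb and that from 26155001 to 26159800 from 4.8 kb to 2.0 kb, while that from 26171801 to 26173000 was 1.2 kb in both. The interval from 27099201 to 27102000 was wider in KO, 3.6 kb against 2.8 kb. The widest MINA intervals of KO were this one, the 3.6-kb counterpart at 27858001 to 27861600 and one of 2.4 kb at 26025401 to 26027800. KO alone had intervals at 26104001 to 26105600 (1.6 kb), at 27341401 to 27342800 (1.4 kb) and at 27777801 to 27778400 (0.6 kb).

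Of the 4 histone marks H3K9me3 differed most in covered length between the genotypes. It had 62 intervals in WT and 30 in KO. Of the 451.6 kb in WT, 123.0 kb were common to both lists and 328.6 kb (72.8%) were in WT only, while 6.8 kb were in KO only. Only 23 of the 62 in WT had a counterpart in KO (37.1%, Wilson interval 26.2% to 49.5%), against 68.6% genome-wide, and 28 of the 30 in KO had one in WT (52.8% genome-wide). The KO list was here almost a subset of the WT list.

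The shorter length held in both spans. The first went from 65.0 kb to 23.0 kb (0.354) and the second from 386.6 kb to 106.8 kb (0.276). The gap had little H3K9me3 in either genotype, 48.4 kb and 37.4 kb (0.773). The stretch from 24 to 66 Mb around the cluster went the other way, from 2379.0 kb to 3709.2 kb (1.56); it had been cut in an earlier analysis of these files from the H3K4me3 ratio after its profile had been seen. The rest of chromosome 6, outside 24 to 66 Mb, stood at 0.655. Counted as intervals and not as length, the ratio in the cluster was 0.484.

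**Figure D3:**
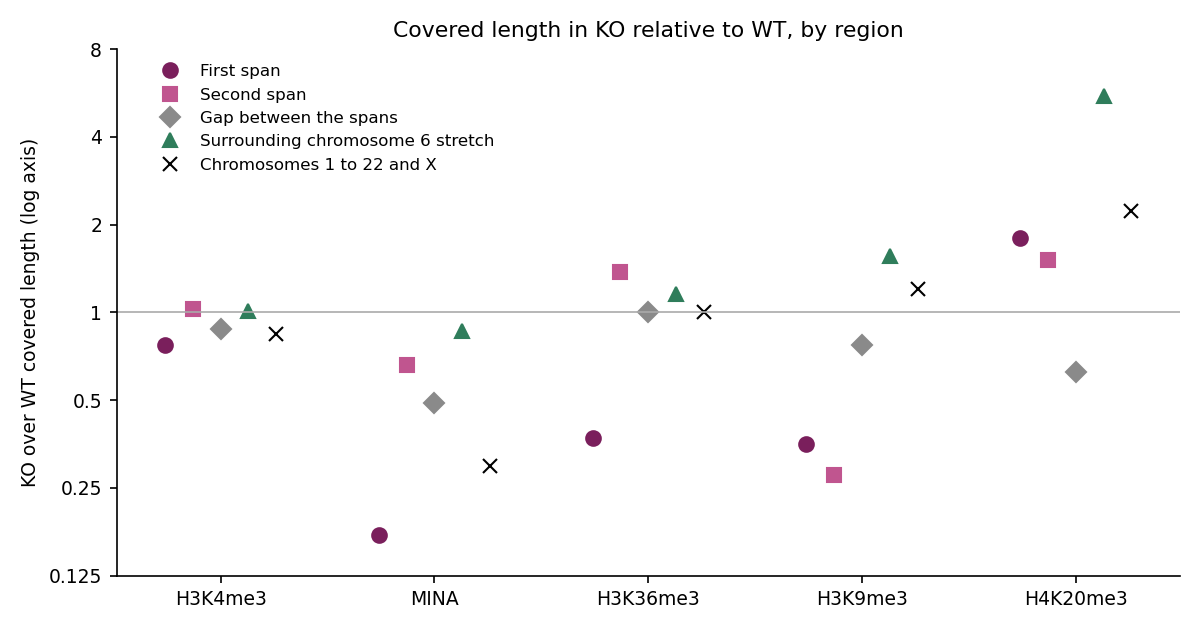
KO over WT covered length (y, log axis) for each antibody, where each point is 1 pair of libraries. The regions are the 2 spans, the gap, the surrounding stretch and chromosomes 1 to 22 and X. The surrounding stretch is 24 to 66 Mb of chromosome 6 without spans and gap. For H3K9me3 both spans lie at 0.354 and 0.276, under the gap and on the other side of 1 from the surrounding stretch and the genome.

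The middle stretch of the second span was the densest in WT and held most of the length that KO lacked. From 27200001 to 27700000 H3K9me3 covered 298.4 kb in WT, 59.7% of the sequence, and 74.2 kb in KO, 14.8%. The widest WT interval of the cluster, 43.2 kb from 27608401 to 27651600, had a single counterpart of 2.8 kb in KO. Next in WT came an interval at 27162001 to 27187000 on the left flank (25 kb) and one at 27406801 to 27430600 (23.8 kb). The widest of those in WT only was 15.0 kb, from 27523201 to 27538200, with a neighbour of 14.6 kb from 27540001 to 27554600. The KO list kept its widest interval, 18.2 kb, from 27407201 to 27425400, where H3K36me3 was listed too. Its next lay at 27597801 to 27607200 (9.4 kb) and, in the first span, at 26287401 to 26296600 (9.2 kb). The widest in KO only measured 2.8 kb, from 27324801 to 27327600. Of 18 pairs 14 were narrower in KO, against 51.5% genome-wide, with a median ratio of 0.572.

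In bins of 50 kb, none of the 20 with enough H3K9me3 was at least 1.5 times higher in KO (30.1% genome-wide). At least 1.5 times lower in KO were 17 of the 20 (45.6% genome-wide). In 6 of them KO had no H3K9me3 interval: those starting at 27200001, 27250001, 27450001, 27500001, 27650001 and 27700001, where WT had 24.4 kb, 19.0 kb, 10.4 kb, 30.0 kb, 31.2 kb and 12.8 kb. The bins that changed least in the middle stretch were those from 27350001 and 27400001, with 42.0 kb against 27.2 kb and 29.2 kb against 25.6 kb. The first span had its H3K9me3 at the far end: 27.4 kb in WT and 3.6 kb in KO in the bin from 26200001, where no H3K4me3 was listed, and 22.6 kb and 11.8 kb in the next.

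**Figure D4:**
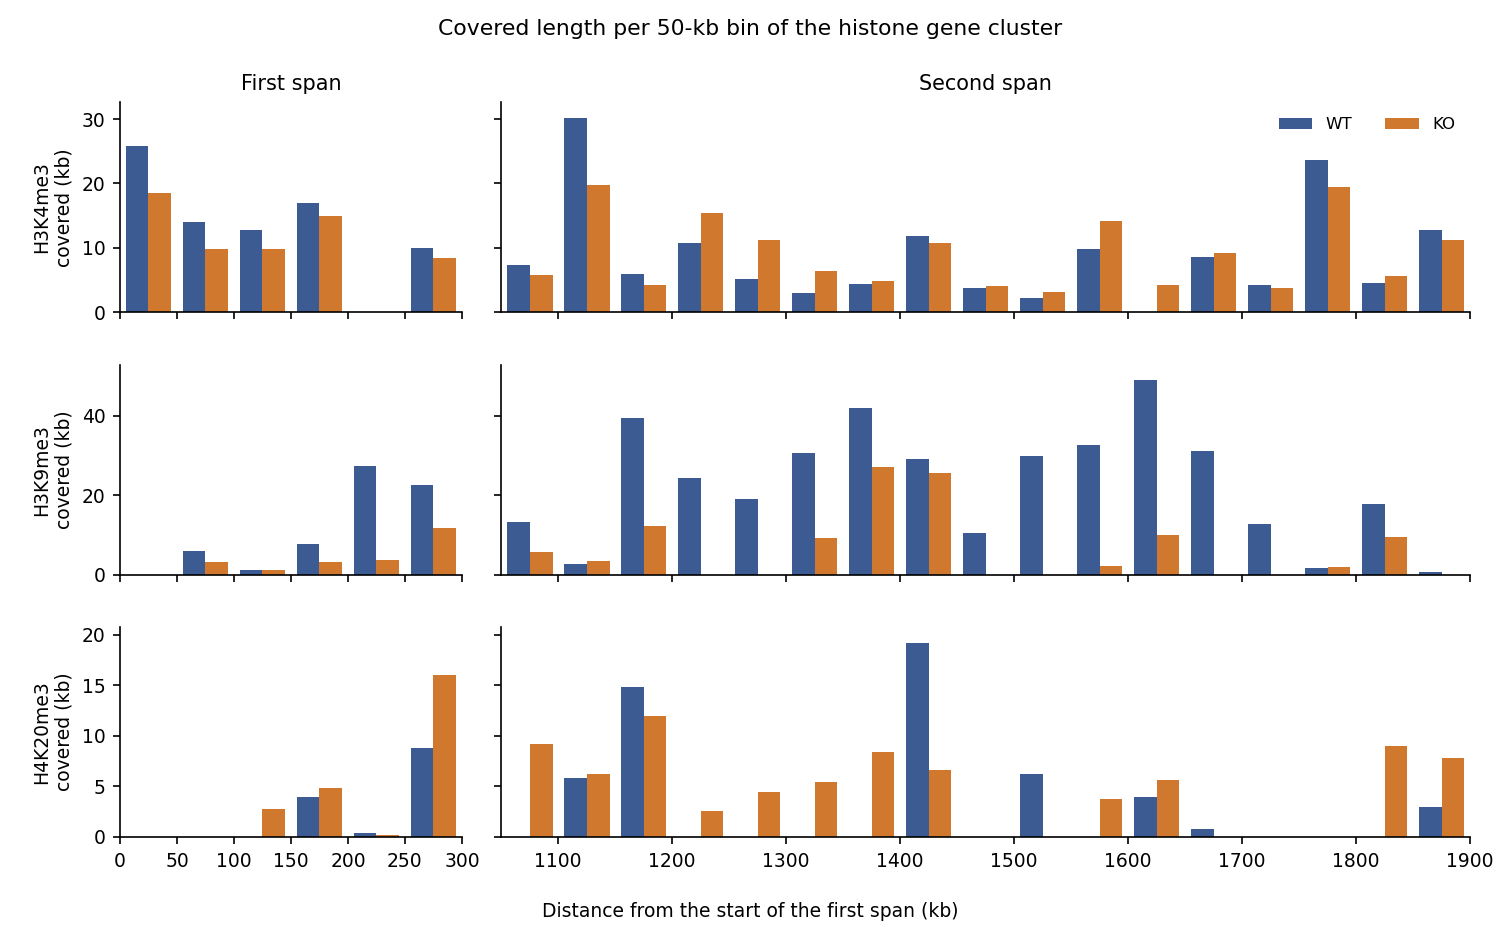
Covered length (kb, linear axes) of H3K4me3, H3K9me3 and H4K20me3 in WT (blue) and KO (orange) per 50-kb bin, by distance in kb from the start of the first span. H3K9me3 is lower in KO in most bins, and H3K4me3 is higher in KO in bins of the middle stretch. H4K20me3 appears in KO in bins where WT had none, and in 2 of 16 bins it is at least 1.5 times lower.

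Part of the H3K4me3 intervals met H3K9me3. In WT 10 of 40 H3K4me3 intervals touched H3K9me3 (25%, Wilson interval 14.2% to 40.2%; 5.88% genome-wide), and in KO 6 of 46 (5.57%). The length under both marks was 22.2 kb in WT and 10.8 kb in KO, 9.74% and 5.03% of the H3K4me3 length. H3K9me3 itself covered 39.3% of the spans in WT, 4.68 times its share of the genome, and 11.3% in KO, 1.12 times. Of the pairs with WT-only H3K9me3 within 5 kb, 11 of 20 were wider in KO, and of the other pairs 3 of 17. Genome-wide the order was the opposite, with 24.6% of 1701 pairs wider near WT-only H3K9me3 and 27.7% of the 13989 others. In the first span none of the 3 pairs near it and none of the 7 others was wider. In the second span alone 11 of 17 pairs near it were wider, and 3 of the 10 others. The split by distance was chosen after the values had been seen.

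H4K20me3 went the other way from H3K9me3 in number and length. It had 9 intervals over 67.0 kb in WT and 23 over 104.8 kb in KO, a ratio of 1.56 beside 2.23 genome-wide and 5.55 in the surrounding stretch. The gap had 33.8 kb in WT and 21.2 kb in KO (0.627). A counterpart in KO was present for 7 of the 9 in WT (55.4% genome-wide), and one in WT for 8 of the 23 in KO (19.6% genome-wide). Among 16 bins 10 were higher in KO (67.7% genome-wide) and 2 lower (22.2% genome-wide). The ratio in the cluster was thus above 1, as in the stretch around it and in the genome, and below both.

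The widest H4K20me3 intervals in WT lay at 27413801 to 27426800 (13 kb), at 27144201 to 27156600 (12.4 kb) and at 26287401 to 26296200 (8.8 kb). The first overlaps the widest H3K9me3 interval of KO and had a KO counterpart of 6.6 kb. The last went to 12.2 kb. The other wide KO intervals lay at 27143801 to 27153000 (9.2 kb) and at 27856401 to 27864200 (7.8 kb). The widest in WT only measured 6.2 kb, from 27523201 to 27529400 and, of equal width, from 27427601 to 27433800. The widest in KO only was 5.4 kb, from 27838801 to 27844200.

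The silent marks overlapped each other in both genotypes. In WT 8 of 9 H4K20me3 intervals touched H3K9me3 (65.1% genome-wide) and in KO 17 of 23 (68.5% genome-wide). The length under both was 56.6 kb in WT and 63.4 kb in KO. This was 12.5% of the H3K9me3 length in WT and 48.8% in KO, and 84.5% and 60.5% of the H4K20me3 length. Of the 64.4 kb with H4K20me3 in KO only, 40.4 kb (62.7%) had carried H3K9me3 in WT. This share was 39.0% in the first span, 68.1% in the second and 53.3% in the gap. WT H3K9me3 covered 21.7%, 45.5% and 6.45% of these regions. The lengths in this paragraph were not counted genome-wide. H4K20me3 touched 5 of 40 H3K4me3 intervals in WT (10.6% genome-wide) and 11 of 46 in KO (25.1% genome-wide). Taking all 5 antibodies, 41.0% of the spans had no interval of any list in WT and 68.4% had none in KO, against 70.4% and 75.1% of the gap.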

How the data were processed

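ChIP-seq interval lists of 10 libraries (5 antibodies, WT and KO, 1 library each) were used as deposited. Reads were aligned to hg19 with BWA and enriched intervals called with SICER 1.1, per the submitters' processing notes; settings: not given in the sources used here. These lists hold starts and ends only, in steps of 200 bp, so the depth is unknown and heights could not be compared. The input library, the merged list of 92233 regions and chromosome Y were not used. The members, the gene list and the tests were chosen with earlier results of these data known. Covered length was counted in 200-bp windows with Python 3.11.15 and numpy 2.4.6, and overlaps of 1 bp were checked with bedtools 2.31.1, which gave equal counts. With 1 library per group no test was run; shares have 95% Wilson intervals (counting error only), and counts in the spans are set beside the same share over all intervals, pairs or bins of the genome. Bins of 50 kb counted when at least 2 kb was covered in WT or KO (union). The counting was tested on simulated data. Regions were named by rule: the 3 widest intervals of each list, the widest found in 1 genotype (up to 5 for H3K4me3 and MINA). Other intervals named for their widths, bins and the middle stretch were chosen after their values were seen. Promoters and gene order are from RefSeq (GRCh38.p14), and no coordinates were converted. Protein sequences were not used here.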

Additional observations from a re-analysis of the deposited data

How the results depend on the processing

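Of 122 alternatives, covering intervals within 5 kb merged, intervals of at least 2 kb, numbers in place of lengths, spans and gap with edges moved by 50 kb, 50% of the shorter interval as overlap, bins of 25 and 100 kb, a fold of 2 and, chosen after seeing the data, spans without the middle stretch and a bin minimum on the sum of both lengths, 21 moved the value, by over 1.5 times or, for shares of intervals, out of their Wilson interval. Counted by number of intervals, the KO over WT ratio was 0.562 for MINA (0.307 by length), 1.5 for H3K36me3 (0.898), 0.484 for H3K9me3 (0.287) and 2.56 for H4K20me3 (1.56). For H3K36me3 this turned the direction, as it did for H3K4me3, with 1.15 by number and 0.942 by length. Taken alone, the first span gave 0.173 for MINA and 0.371 for H3K36me3, and the second span 0.658 and 1.38. H3K4me3 also turned between the spans (0.774 and 1.03). With intervals within 5 kb merged, 100% of WT H3K4me3 intervals (97.5% unmerged) and 51.9% of WT H3K9me3 intervals (37.1%) were found in KO. Bins with lower H3K4me3 in KO, 4.55% at 50 kb and a fold of 1.5, were 0% with bins of 100 kb and 0% with a fold of 2. Bins with lower MINA were 66.7% with a fold of 2 (100% at 1.5) and 9 of 10 by the sum of both lengths. Bins of 25 kb gave 9.09% with higher MINA (0% at 50 kb), 40% with higher H3K36me3 (25%) and 19% with lower H4K20me3 (12.5%). Bins with higher H3K36me3 were 0% at 100 kb, and those with lower H3K36me3 25% with a fold of 2 (50% at 1.5). Without the middle stretch the share of the spans over that of the gap was 3.65 for WT H3K9me3 (6.09 with it), 3.74 and 2.11 for MINA in WT and KO (2.23 and 1.40) and 0.107 for KO H3K36me3 (0.307). The cause was not tested. No paired analysis was possible because each group has 1 library. Shares over 4 to 16 intervals (H3K36me3, MINA, WT H4K20me3) have wide intervals, and neither depth nor signal over input is known.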

Other observations

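In the second span H3K36me3, the mark of transcribed gene bodies, lay largely under H3K9me3, the mark of silent chromatin. In WT 14.2 kb of its 19.4 kb were also H3K9me3 (73.2%), and in KO 21.8 kb of 26.8 kb (81.3%). These shares rest on 2 WT and 4 KO H3K36me3 intervals, and no genome-wide share was counted. H3K9me3 covered 45.5% of the second span in WT and 12.6% in KO. In the first span the marks had no length in common in either genotype, and in the gap they shared 6.8 kb of 71.0 kb in WT and 10.4 kb of 71.0 kb in KO. Most of the length shared in the second span lay in the bin of 50 kb from 27400001. H3K9me3 covered 29.2 kb there in WT and 25.6 kb in KO, the smallest relative drop among the bins of the middle stretch. The genes there were not identified, since no hg19 annotation was used here.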
